A study of Homo sapiens with 17 samples.

Results

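The wide ChIRP peaks are the 5 regions of at least 2000 bp among the 122190 autosomal peaks of the single list from chromatin isolation by RNA purification (ChIRP), which is 0.00409% of them. They were chosen by the width that the authors' peak caller gave, so their widths, fold enrichments and q-values in that list are a description and were not tested. The list held 128351 peaks in all, with 6083 on chromosome X and 78 on sequences other than chromosomes 1 to 22 and X. The 5 regions lay on 5 of the 22 autosomes, 1 each on chromosomes 20, 9, 15, 11 and 5, in order of width.

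The cells were HCC1954, a HER2-positive human breast cancer line, transfected with antisense oligonucleotides (ASOs) and fixed with formaldehyde 72 h later. The labels name 2 arms, Si1235 and NC1235, without spelling out what Si and NC stand for, and the protocol speaks of ASOs for the cells without setting the arms apart. Each arm had 2 libraries of chromatin immunoprecipitation (ChIP-seq) for the histone variant H2A.Z (H2AZ in the labels), 2 for H3K27ac and 2 for H3K36me3, and 1 for H3K9ac. The ChIRP library carries the name NC1235, and no source used here names the RNA that its probes target. The series concerns LINC01235, a long non-coding RNA gene, and the peak lists hold no RNA level with which to check its knockdown. Nothing in the labels says that replicates were separate cultures, so a p-value reflects only how much these libraries vary, which may be a technical spread. All libraries come from 1 cell line.

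ChIRP recovers DNA that lies close to a chosen RNA by pulling down that RNA with antisense probes, and an RNA that stays at its own gene gives signal there. H2A.Z, H3K27ac and H3K9ac mark active promoters and enhancers, and H3K36me3 is laid down over the bodies of transcribed genes as RNA polymerase passes. A peak list states where a mark passed the caller's threshold, not how much of it there was. Between 42764 and 51239 H2AZ peaks were listed per library, between 44841 and 48396 H3K27ac peaks and between 67312 and 81324 H3K36me3 peaks, while H3K9ac had 60042 in Si1235 and 59954 in NC1235. The cell label was checked with H3K27ac peaks of the NC1235 libraries over gene bodies and 2 kb on either side. All 7 epithelial markers (ERBB2, EPCAM, CDH1, KRT7, KRT8, KRT18 and KRT19) had a peak in both libraries, covering 7.86 to 70.8% of each gene. Of markers of other cell types, the endothelial genes PECAM1 and CDH5 (18.2 to 34.8%), the immune genes PTPRC and CD3E (3.00 to 9.18%) and the fibroblast genes COL1A1 and PDGFRB (3.85 to 6.30%) had a peak in both libraries, while COL3A1 had none.

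None of the 35116 promoters in the RefSeq table of GRCh38.p14 (250 bases before to 50 after a gene's start) overlapped a wide ChIRP peak. The promoter of LINC01235 is not among those 35116, so an overlap of the chromosome 9 peak with it could not be counted. That peak does span the lower-coordinate end of LINC01235, with 323 bases before it and 2340 inside the gene. Whether this end is the gene's start was not determined. The 3 promoters below are shown because they are the nearest tabulated ones for the chromosome 11 and chromosome 9 peaks and the promoter of the host gene of the chromosome 5 peak. They are read 5′ to 3′ on the plus strand of GRCh38.p14, the assembly that hg38 denotes, and capitals mark CG dinucleotides.
CEP72 promoter, chr5:612090-612389: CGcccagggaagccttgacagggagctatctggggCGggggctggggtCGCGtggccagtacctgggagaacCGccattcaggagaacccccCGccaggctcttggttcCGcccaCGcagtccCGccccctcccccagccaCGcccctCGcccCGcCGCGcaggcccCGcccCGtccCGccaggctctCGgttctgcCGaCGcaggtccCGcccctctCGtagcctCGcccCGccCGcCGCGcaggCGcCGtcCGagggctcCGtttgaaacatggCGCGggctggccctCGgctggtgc
LOC105369368 promoter, chr11:69247751-69248050: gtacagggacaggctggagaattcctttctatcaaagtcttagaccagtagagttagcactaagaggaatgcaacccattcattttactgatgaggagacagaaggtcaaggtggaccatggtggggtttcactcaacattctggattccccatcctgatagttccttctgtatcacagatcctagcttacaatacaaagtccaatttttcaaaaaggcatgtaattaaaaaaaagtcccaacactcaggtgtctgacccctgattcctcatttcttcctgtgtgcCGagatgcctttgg
LOC105375977 promoter, chr9:13440485-13440784: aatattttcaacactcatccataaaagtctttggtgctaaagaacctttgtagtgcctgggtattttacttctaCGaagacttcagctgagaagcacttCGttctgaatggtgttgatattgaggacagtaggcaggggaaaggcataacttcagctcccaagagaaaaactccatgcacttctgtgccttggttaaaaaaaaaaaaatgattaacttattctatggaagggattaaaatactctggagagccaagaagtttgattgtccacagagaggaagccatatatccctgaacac
CEP72 has 34 CG dinucleotides and 75.3% G or C in these 300 bases, LOC105369368 has 1 and 43.3%, and LOC105375977 has 2 and 39.3%, against table medians of 14 and 58.7%. A share of 15.6% of the tabulated promoters has at least as many CG dinucleotides as CEP72. The letters TATAAA, searched on both strands, stand in none of the 3 and in 11.5% of all promoters. The letters CCAAT stand once in LOC105369368, in neither of the other promoters shown, and in 34.6% of all. The CEP72 promoter lay 35908 bp from the chromosome 5 peak and was covered in full by H2AZ, H3K27ac and H3K9ac peaks in every library of both arms. The promoters of LOC105369368, at 2887 bp from the chromosome 11 peak, and of LOC105375977, at 31765 bp from the chromosome 9 peak, were covered by no peak of any of the 4 marks in any library.

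The wide ChIRP peaks covered a broad range of strength. Their fold enrichment, the authors' ratio of the read pileup at the summit to the local background, taken here with 1 read added to both, ran from 23.8 to 168.5 with a median of 60.3. The other autosomal peaks had a median fold of 11.05 and a median width of 378 bp, the narrowest being 217 bp. Of those others, 21642 had a fold at or above the lowest of the wide peaks and 3 at or above the highest. A high fold was often found without such a width: 220 other autosomal peaks had a fold of at least 100, with a median width of 717.5 bp and a highest width of 1726 bp. The 35 peaks of 1500 bp to under 2000 bp had a median fold of 48.1.

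**Figure D1:**
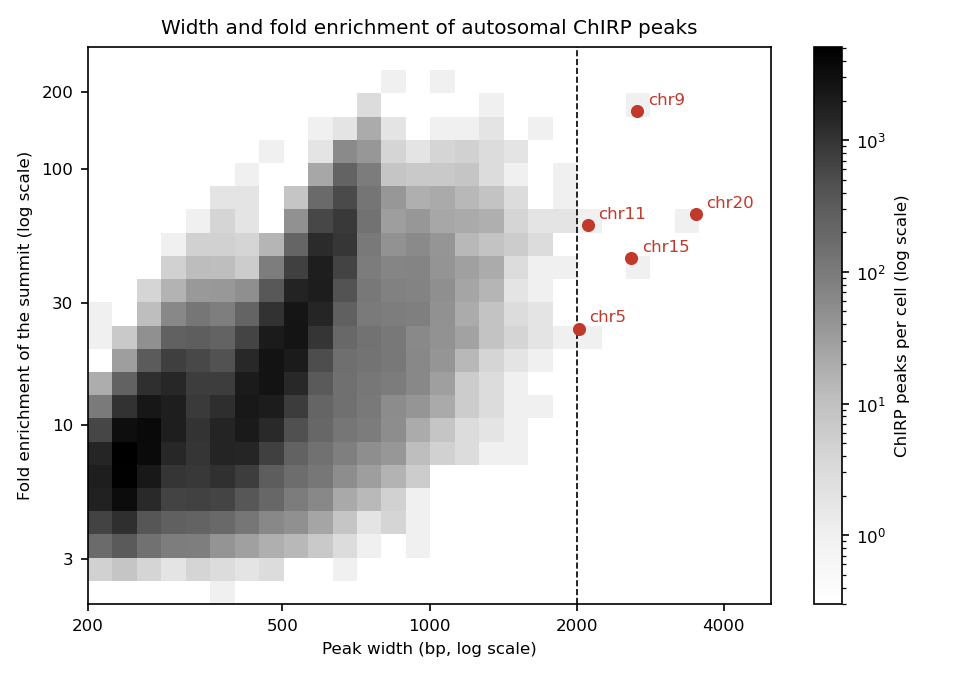
Peak width in bp (horizontal, log scale) against fold enrichment of the summit (vertical, log scale) for autosomal ChIRP peaks; shading counts peaks per cell and red points are the 5 wide peaks, right of the dashed line at 2000 bp. The chromosome 9 peak stands highest of the 5 at a fold of 168.5 and the chromosome 5 peak lowest at 23.8.

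The widest region, chr20:61272438-61275946 (hg38), spans 3509 bp inside CDH4, the gene of R-cadherin, a cell adhesion protein. CDH4 is 688357 bp long, and the nearest other protein-coding gene, TAF4 (a subunit of the general transcription factor TFIID), lies 698852 bp away. The summit at 61273792 had a fold of 66.7, rank 1824 by fold and 391 by q-value, with a −log10 q-value of 395.752. Solving the fold and the p-value for whole reads gave a pileup of 261 reads over a local background of 2.93 reads per position. The annotation table gives gene ends but no exons, so exon or intron is not stated for any of the 5 regions.

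The second region, chr9:13406057-13408719, spans 2663 bp and overlaps LINC01235 (chr9:13406380-13431329), so its distance to that gene is 0. Of its bases 2340 lie inside the gene and 323 lie before the gene's lower coordinate. It is the strongest of the 5, with a fold of 168.5 at the summit 13406715, rank 4 by fold and 7 by q-value in the autosomal list, and a −log10 q-value of 1877.55. Its solved pileup was 1003 reads over a background of 4.96. It lies in a gene desert, here an interval of at least 500 kb without a protein-coding gene: 802150 bp separate MPDZ, a multi-PDZ-domain scaffold protein gene 126365 bp away, from NFIB, a transcription factor gene 673124 bp away.

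LINC01235 overlapped 3 ChIRP peaks in all. The other two were chr9:13416083-13416798, with a fold of 66.3, and chr9:13426955-13427274, with a fold of 9.08. Within 100 kb of the gene lay 15 ChIRP peaks, within 1 Mb 142, and on the whole chromosome 6365. The second-highest fold of the autosomal list, 214, stood 56304 bp from LINC01235 at chr9:13487633-13488431, a peak of 799 bp. Without the wide peak, the median fold was 17.5 over the 14 others within 100 kb and 12.1 within 1 Mb, against 11.4 over chromosome 9. The nearest of the 5 chromosome 9 peaks of 1500 bp to under 2000 bp lay 379711 bp from LINC01235.

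The third region, chr15:20301405-20303992, spans 2588 bp. It lies inside LOC124903442 (chr15:20295653-20332127), a protein-coding gene that RefSeq gives by prediction only. The nearest protein-coding gene with a curated transcript, GOLGA6L6, a golgin family member, lies 227864 bp away, and 5 of the 6 genes of any kind within 150 kb are pseudogenes. The summit at 20302789 had a fold of 45.0 and a −log10 q-value of 176.275, the lowest of the 5, with a pileup of 125 reads over 1.80. A second broad peak of 1647 bp with a fold of 19.6 began 1752 bp further on, at chr15:20305745-20307391.

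The fourth region, chr11:69242754-69244863, spans 2110 bp and overlaps no protein-coding or long non-coding RNA gene. It lies in an interval of 13066 bp free of such genes, between LOC105369367 and LOC105369368, which are both long non-coding RNA genes. Overlap with genes of other kinds was not checked. MYEOV, a protein-coding gene named for its overexpression in myeloma, lies 49292 bp away, and CCND1, the gene of cyclin D1, 396293 bp away. The summit at 69243459 had a fold of 60.3 but rank 84 by q-value, since its pileup of 521 reads stood over a background of 7.66, the highest of the 5.

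The fifth region, chr5:648298-650316, spans 2019 bp inside CEP72 (chr5:612340-676616), the gene of a centrosomal protein. TPPP, the gene of a tubulin polymerization promoting protein, lies 9546 bp away, and TERT, the gene of the telomerase catalytic subunit, 602851 bp away. Its summit at 648746 had the lowest fold of the 5, 23.8, with a pileup of 189 reads over a background of 6.97.

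The chromosome 5 and chromosome 11 regions are those just inside the width limit. Just outside it lay chr21:45738399-45740370, with 1972 bp and a fold of 92.4 in PCBP3, the gene of an RNA-binding protein, and chr1:3571353-3573293, with 1941 bp and a fold of 68.8 in MEGF6. The 1 other peak of at least 2000 bp was on chromosome X, which the rule leaves out, at chrX:30788510-30806972. It was 18463 bp wide with a fold of 187.1, and lay 20470 bp from TAB3, the gene of an adaptor of the TAK1 kinase.

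The 5 wide autosomal peaks lay both inside and outside genes. A protein-coding gene overlapped 3 of them (60%) and 47.6% of the other autosomal peaks. A gene desert held 1 of 5, the chromosome 9 region (20%), and 24.5% of the others. These are shares of all regions that met the rule in 1 library, and they were not tested. With only genes that have a curated transcript, an alternative added after seeing the data, the chromosome 15 region counted as well (40%). Its interval runs from the start of the chromosome to GOLGA6L6, with no such gene on the other side. The share of the other peaks under this alternative was not computed, so 24.5% is not its comparison. Of the genes ERBB2, GRB7, STARD3, MYC, PVT1, CCND1, TERT, LINC01235 and NFIB, 2 had a wide peak within 500 kb, CCND1 and LINC01235. The LINC01235 case is the overlap described above. How many other ChIRP peaks lie as close to these genes was not computed, and nothing is read from this count.

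Other ChIRP peaks were dense around 3 of the 5 regions, and the local background was high around 4. Within 50 kb lay 14 other ChIRP peaks at chromosome 20, 9 at chromosome 9, 5 at chromosome 15, 14 at chromosome 11 and 15 at chromosome 5, against a median of 5 and a 95th percentile of 10 over the other autosomal peaks. The median background of the peaks 10 kb to 1 Mb away was 8.32 reads per position at chromosome 5, 3.61 at chromosome 20, 3.15 at chromosome 11 and 2.45 at chromosome 9. Over other autosomal peaks the same measure had a median of 0.823 and a 90th percentile of 1.32. These 4 neighbourhoods were 10.1, 4.38, 3.83 and 2.98 times that median, and 0.147, 0.734, 1.17 and 2.29% of other peaks had a higher one. The chromosome 15 neighbourhood, at 0.931, was 1.13 times the median. The background comes from the same library as the width and is given without a test. The number of DNA copies at these places was not tested.

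**Figure D2:**
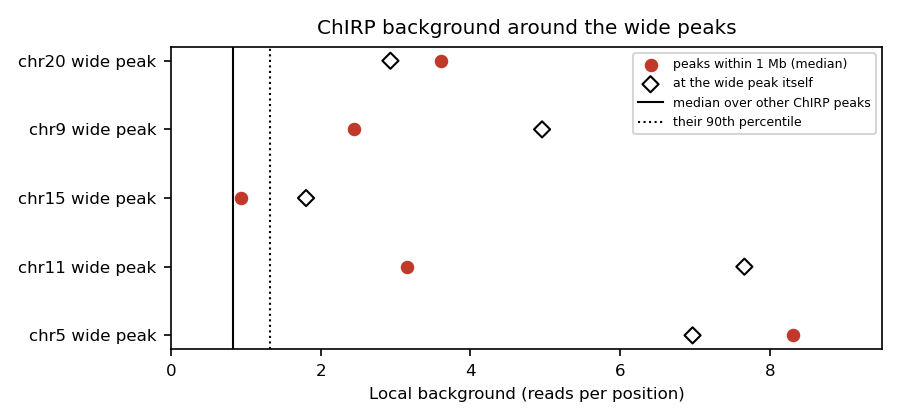
Local ChIRP background in solved reads per position: red circles are medians over ChIRP peaks 10 kb to 1 Mb from each wide peak, open diamonds the value at the wide peak, the solid line the median (0.823) and the dotted line the 90th percentile (1.32) of the circles' measure over other autosomal peaks. The chromosome 5, 20, 11 and 9 circles lie right of the dotted line and the chromosome 15 circle, at 0.931, lies left of it.

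Which histone marks lay in the wide ChIRP peaks was asked next. H2AZ, H3K27ac and H3K9ac had no peak in any of the 5 regions, in any library of Si1235 or of NC1235. H3K36me3 had a peak in 1 of the 5, the chromosome 5 region in CEP72, in all 4 libraries. Among other autosomal ChIRP peaks in NC1235, H2AZ overlapped 3.06 and 2.56% by at least 1 bp, H3K27ac 4.01 and 4.01%, H3K9ac 4.60%, and H3K36me3 7.28 and 6.22%. Shares this low leave few overlaps to be found among 5 regions, and nothing particular to the wide peaks is read from these counts. A longer peak also has more bases for a mark to overlap: H3K27ac of NC1235 replicate 1 touched 3.94% of peaks under 500 bp and 5 of the 35 peaks of 1500 bp to under 2000 bp (14.3%).

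At CEP72 the H3K36me3 cover of the wide peak was 15.8 and 34.9% in the Si1235 libraries and 12.1 and 6.74% in the NC1235 libraries. Both Si1235 values stood above both NC1235 values, as at 8.48% of the 10647 ChIRP peaks tested, and those of either direction made up 15.3%. The difference was 15.9 points (SE 14.2, limma adjusted p = 1). By this test 0% of the 10647 peaks passed in either direction, and 557 had an unadjusted p under 0.05. With quantile normalization the difference was 3.49 points and the arms overlapped. It was 6.41 points without Si1235 replicate 2, 25.5 points without Si1235 replicate 1 and 8.05 points with 1 kb added on each side.

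The cover came from 1 edge. In all 4 libraries a gap in the H3K36me3 domain of CEP72 spanned most of the wide ChIRP peak, 2635 and 2291 bp long in Si1235 and 2724 and 2849 bp long in NC1235. The H3K36me3 peak on the lower-coordinate side ended at 648617 and 649002 in Si1235 and at 648542 and 648433 in NC1235. The next one began at 651253 and 651294 in Si1235 and at 651267 and 651283 in NC1235, always beyond the end of the ChIRP peak at 650316. The ChIRP summit lay inside the H3K36me3 peak in Si1235 replicate 2 and outside it in the other 3 libraries. The fold of that peak was 33.0 and 30.0 in Si1235 and 21.7 and 18.5 in NC1235, values of separately called lists that are set side by side without a test. CEP72 as a whole was covered over 71.9 and 70.7% in Si1235 and over 71.4 and 69.1% in NC1235.

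No wide ChIRP peak could be tested for H2AZ or H3K27ac cover of the region itself, since none reached the mean cover of 5%. Among all ChIRP peaks, 0% of 4494 passed for H2AZ (383 at an unadjusted p under 0.05) and 3.88% of 5720 for H3K27ac. H3K9ac has 1 library per arm and no test. A difference of at least 20 points was found at 42.9% of the 6634 ChIRP peaks with H3K9ac cover and at none of the wide ones, which had no cover.

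**Figure D3:**
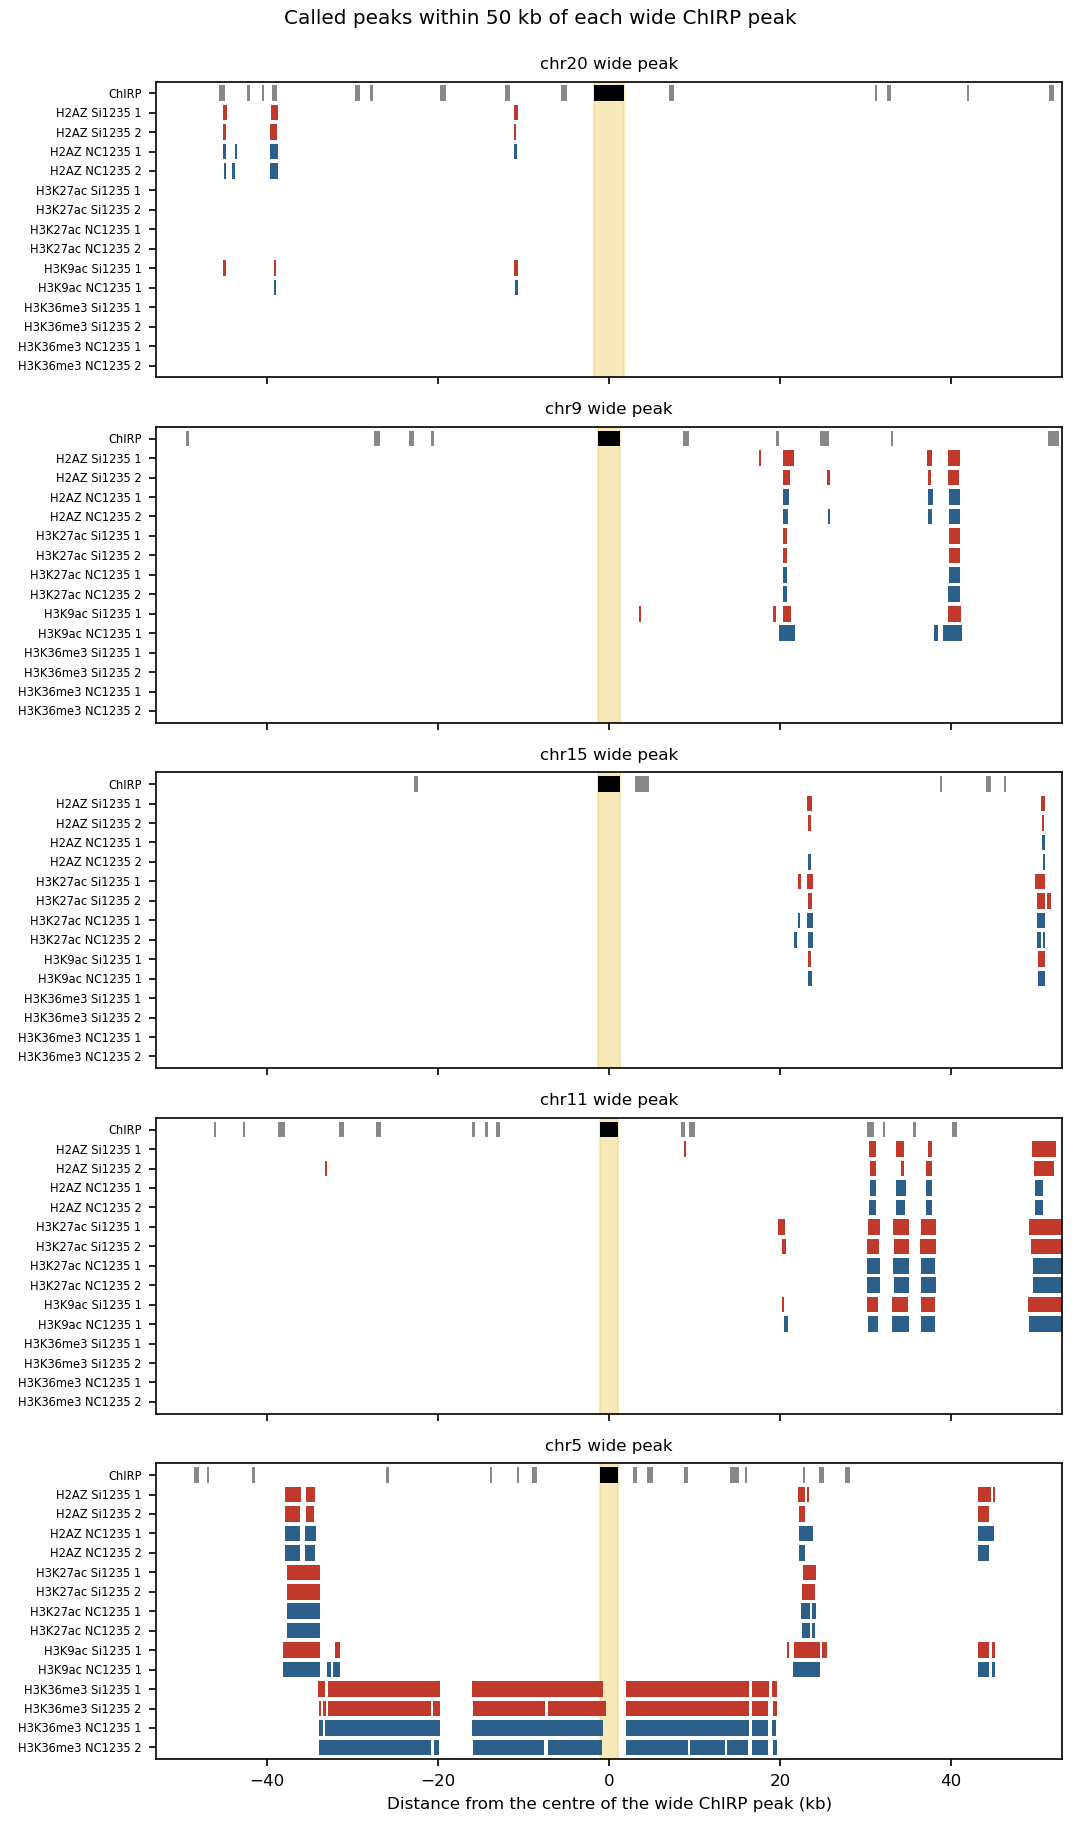
Called peaks within 50 kb of each wide ChIRP peak, by distance from its centre in kb: ChIRP on top (black, the wide peak; grey, others), then each library of the 4 marks with Si1235 in red above NC1235 in blue; the number after the arm is the replicate. The shaded wide peaks hold no mark peak except the H3K36me3 edge in the chromosome 5 panel, where cover was 15.8 and 34.9% in Si1235 and 12.1 and 6.74% in NC1235.

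Since 4 of the 5 regions held no peak of any mark, the nearest peak of each mark was located. At LINC01235 the nearest H3K27ac peak lay 18985 and 19020 bp away in Si1235 and 18996 and 18987 bp away in NC1235, inside the gene at chr9:13427716-13428162 in NC1235 replicate 1. The nearest H2AZ peak lay 16199 and 18983 bp away in Si1235 and 18970 and 19002 bp away in NC1235, the same site except for a weak peak (fold 3.09) of Si1235 replicate 1. H3K9ac had a peak of fold 3.17 at 2167 bp in the Si1235 library, and its nearest one in the NC1235 library lay at 18545 bp with a fold of 12.95. No H3K36me3 peak came closer than 203116 and 203153 bp in Si1235 and 184445 and 184416 bp in NC1235.

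At chromosome 11 the nearest H3K27ac peak lay 18700 and 19212 bp away in Si1235, with folds of 7.63 and 4.46, and 29180 and 29179 bp away in NC1235. The nearer site had no H3K27ac peak in either NC1235 library, while H3K9ac had a peak near it in both arms, at 19152 bp in Si1235 and 19390 bp in NC1235. The nearest H3K36me3 peak lay 50567 and 50704 bp away in Si1235 and 60443 and 60354 bp away in NC1235. The nearest H2AZ peak was at 7689 and 29509 bp in Si1235 and at 29465 and 29414 bp in NC1235.

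At chromosome 20 H3K27ac stayed 83901 and 83658 bp away in Si1235 and 83827 and 83945 bp away in NC1235, the farthest of the 5 regions. H3K36me3 was first met 305159 and 304790 bp away in Si1235, still inside CDH4, and 695997 and 696459 bp away in NC1235, beyond the end of CDH4. CDH4 itself had H3K36me3 cover of 0.126 and 0.108% in Si1235 and of 0 and 0% in NC1235. H2AZ had a peak at 8911 and 9173 bp in Si1235, and at 9066 and 37036 bp in NC1235.

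At chromosome 15 H3K27ac lay 20850 and 21945 bp away in Si1235 and 20823 and 20321 bp away in NC1235. Its H2AZ peak at 21813 and 21979 bp in Si1235 was found at 21971 bp in NC1235 replicate 2, while in NC1235 replicate 1 the nearest lay at 49370 bp. H3K36me3 was farthest here, at 1975436 and 2259713 bp in Si1235 and at 1975042 and 1975185 bp in NC1235. At chromosome 5 H3K27ac lay 21645 and 21511 bp away in Si1235 and 21466 and 21513 bp away in NC1235, and H2AZ 21081 and 21205 bp in Si1235 and 21183 and 21165 bp in NC1235.

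Distances that did not overlap between the arms ran in both directions. For H3K27ac both Si1235 libraries were nearer at chromosome 11 and farther at chromosome 15, as at 25.4 and 27.1% of all autosomal ChIRP peaks. For H3K36me3 both were nearer at chromosomes 20 and 11 and farther at chromosomes 9 and 15, against 21.9 and 17.7% of all. For H2AZ the distances overlapped at all 5 regions, while 17.2% of all peaks were nearer and 20.3% farther in both Si1235 libraries. These shares are high over the whole list, and nothing particular to the wide peaks is read from them.

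**Figure D4:**
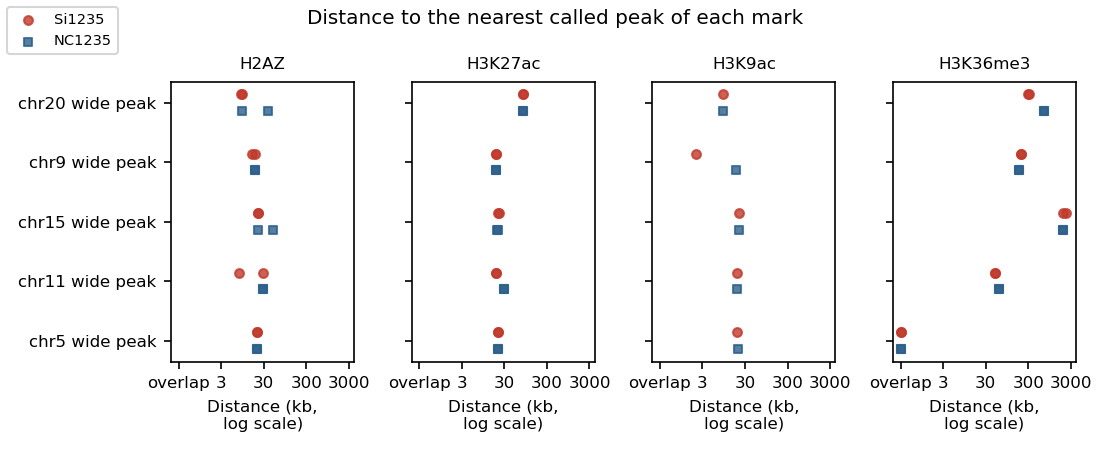
Distance in kb (log scale) between each wide ChIRP peak and the nearest called peak of each mark, 1 point per library with Si1235 (red circles) above NC1235 (blue squares); overlap is drawn at the left end. H3K36me3 is nearer in both Si1235 libraries at chromosomes 20 and 11 and farther in both at chromosomes 9 and 15, as at 21.9 and 17.7% of all autosomal ChIRP peaks.

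Change of the marks around the regions was then measured as the cover of the ChIRP peak with 50 kb on each side, a window chosen after the values in the peaks themselves were seen. Windows of neighbouring ChIRP peaks overlap one another. With a mean cover of at least 1%, 4 of the 5 regions could be tested for H2AZ, 4 for H3K27ac and 1 for H3K36me3, and 0 passed for any mark. Among all windows 0% of 61641 passed for H2AZ (3578 at an unadjusted p under 0.05), 19.6% of 58672 for H3K27ac and 0% of 37945 for H3K36me3 (3096 at an unadjusted p under 0.05).

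The chromosome 11 region had the largest H3K27ac difference of the 4 tested. Its window was covered over 7.87 and 6.89% in Si1235 and over 6.36 and 6.19% in NC1235. The arms did not overlap, as at 29.9% of all windows in this direction. The difference was 1.11 points (SE 0.419, limma adjusted p = 0.120). It passed with quantile normalization (1.24 points, limma adjusted p = 0.0281). In that setting 8234 of all 58672 windows passed higher and 8370 lower, so the pass is not particular to this region. The difference was 1.59 points without Si1235 replicate 2 and 0.620 points without Si1235 replicate 1. Without either NC1235 library it was 1.19 and 1.02 points. Over the alternatives that kept every library its limma adjusted p lay between 0.0281 and 0.150. H2AZ cover of the window was 3.93 and 3.36% in Si1235 and 3.58 and 3.30% in NC1235, and H3K9ac cover was 7.05% in either arm.

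At LINC01235 H3K27ac covered 1.84 and 1.80% of the window in Si1235 and 1.70 and 1.89% in NC1235, and the arms overlapped (0.0244 points, SE 0.163, limma adjusted p = 0.937). H2AZ covered 3.40 and 2.56% in Si1235 and 2.63 and 2.53% in NC1235, a difference of 0.403 points (SE 0.412, limma adjusted p = 1). H3K9ac covered 3.07% in Si1235 and 4.40% in NC1235. With 100 kb on each side H2AZ covered 5.51 and 4.61% in Si1235 and 3.97 and 2.95% in NC1235. Both Si1235 values were then above both NC1235 values, as at 9.26% of the 69342 windows of that size, and the difference of 1.60 points had an SE of 0.693 and a limma adjusted p of 0.823. Of LINC01235 itself, H2AZ covered 6.53 and 3.24% in Si1235 and 2.89 and 2.32% in NC1235, and H3K27ac 2.06 and 2.00% in Si1235 and 1.79 and 2.14% in NC1235. H3K36me3 covered none of it.

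Of the 5 windows, the one at chromosome 5 had the highest cover of H2AZ, H3K9ac and H3K36me3, while H3K27ac cover was higher at chromosome 11. H3K36me3 covered 45.3 and 44.6% of it in Si1235 and 45.0 and 43.5% in NC1235 (0.660 points, SE 3.09, limma adjusted p = 1.000). H3K27ac covered 5.29 and 5.35% in Si1235 and 5.20 and 5.01% in NC1235. These arms did not overlap, as at 29.9% of all windows in this direction, and the difference was 0.220 points (SE 0.278, limma adjusted p = 0.634). H2AZ covered 5.54 and 4.68% in Si1235 and 6.45 and 4.95% in NC1235, and H3K9ac 10.2% in either arm. By comparison the median window of other autosomal ChIRP peaks in NC1235 was covered over 1.08 and 0.813% by H2AZ, 0.642 and 0.684% by H3K27ac and 0 and 0% by H3K36me3.

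The chromosome 20 and 15 windows had less H2AZ cover than the other 3 in every library, and no H3K36me3 peak. At chromosome 20 H3K27ac and H3K36me3 covered 0% in all libraries, and H2AZ covered 1.54 and 1.37% in Si1235 and 1.69 and 1.45% in NC1235 (difference −0.111 points, SE 0.248, limma adjusted p = 1). At chromosome 15 H3K27ac covered 2.04 and 1.48% in Si1235 and 1.79 and 1.61% in NC1235 (0.0560 points, SE 0.228, limma adjusted p = 0.894). H2AZ there was below the minimum of 1%, at 0.963 and 0.690% in Si1235 and 0.330 and 0.530% in NC1235. Without that minimum its difference was 0.396 points (SE 0.194, limma adjusted p = 0.795).

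A larger difference lay beside the chromosome 11 region, beyond 50 kb, and the window of 100 kb on each side was chosen because of it. H3K36me3 covered 12.8 and 10.1% of that window in Si1235 and 2.08 and 0.969% in NC1235. The arms did not overlap, as at 15.3% of the 48832 windows tested in this direction. The difference was 9.89 points (SE 1.18), and its limma adjusted p of 0.0501 missed the threshold of 0.05, which 36 windows passed upward (0.0737%). It passed with the replicate number as a block (limma adjusted p = 0.0189), where 2436 of the 48832 windows passed upward. It also passed with quantile normalization (9.72 points, limma adjusted p = 1.24e-07), where 3372 windows passed upward. With any 1 of the 4 libraries left out the difference was 8.53 to 11.3 points. Those fits assume that the lone library of an arm varies like the others. Without a minimum cover its limma adjusted p was 0.123. As the window was picked for this difference, these p-values do not support it independently. The H3K36me3 lists were longer in Si1235 (74836 and 81324 peaks) than in NC1235 (67312 and 71046 peaks). Equal peak numbers and a stricter q-value were not tried for this window, so an effect of list length was not tested.

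All of this H3K36me3 cover lay on the side of MYEOV and CCND1. Within 100 kb to that side, 16 and 17 H3K36me3 peaks covered 25.8 and 20.3 kb in Si1235, and 5 and 4 peaks covered 4.195 and 1.958 kb in NC1235. On the other side there were 0 kb in all 4 libraries. The peaks on the MYEOV side had folds of 2.48 to 7.94 in Si1235 and of 2.52 to 5.02 in NC1235. Whether the strength of the mark differed there was not tested. MYEOV was covered by H3K36me3 over 40.3 and 28.1% in Si1235 and 0 and 0% in NC1235, while H3K27ac and H3K9ac covered all of MYEOV in every library of both arms. H3K27ac on that side covered 16.5 and 15.1 kb in Si1235 and 14.4 and 14.1 kb in NC1235. H2AZ covered 6.06 and 4.42 kb in Si1235 and 5.70 and 5.37 kb in NC1235, and these overlapped between the arms.

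**Figure D5:**
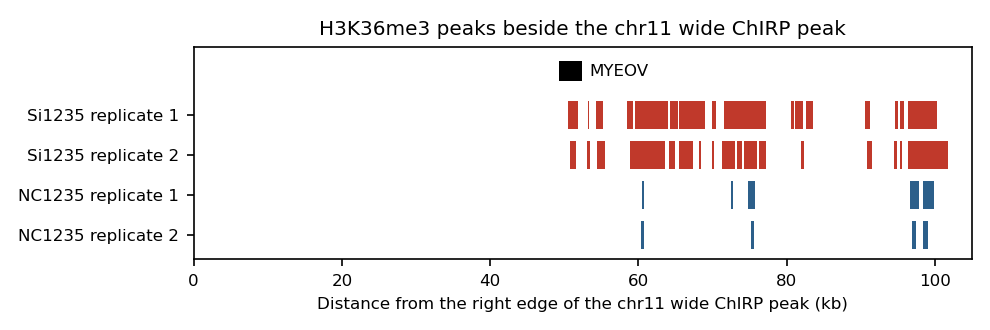
H3K36me3 peaks by distance in kb from the right edge of the chromosome 11 wide ChIRP peak, 1 lane per library with Si1235 (red) above NC1235 (blue); the black box is MYEOV. Peaks cover 25.8 and 20.3 kb of the 100 kb in the Si1235 lanes and 4.195 and 1.958 kb in the NC1235 lanes.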

How the data were processed

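HCC1954 cells of the Si1235 and NC1235 arms were profiled by ChIP-seq and, in 1 library, by ChIRP. Of 17 samples, 15 had a peak list, each from a single library; the 2 inputs were not used. Per the submitters' processing notes, Bowtie2 2.2.9 and MACS2 were used with the hg38 build; the same notes name DESeq2 1.22.2 and HTSeq 2.0.3 without a role, and MACS2 settings and control are not given in the sources used here. In each deposited list the fold enrichment is the authors' linear ratio of summit pileup to local background, taken here with 1 read added to both terms, and the deposited p-values and q-values are −log10 values; the lowest −log10 q in the mark lists was 2.00029. The lists hold no read counts, so depth is unknown. The deposited peak names of the H3K9ac lists carry another residue name, and the labels were followed.

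The whole-read pileup and background at each ChIRP summit were solved from the fold and the p-value, within 0.005 on the −log10 scale, for 99.8% of autosomal peaks. The percent of each ChIRP peak, or of wider windows around it, covered by peaks of a mark was computed per library. All ChIRP peaks with a mean cover of at least 5% (1% for windows with flanks) entered limma 3.58.1 (R 4.3.3) with an intensity trend and no replicate term, on Si1235 minus NC1235 in points. Adjustment was by Benjamini-Hochberg over all of them, at a threshold of 0.05. On simulated cover with 200 shifted peaks, of 40 points in the peaks and 8 points in the 50 kb windows, all were recovered, with 7 to 15 false calls. The simulated noise was Gaussian, alike for all peaks and smaller than the real spread between replicates. Full recovery there therefore does not show the power of the test on the real lists. Gene positions came from 58419 of the 59792 genes of the RefSeq table of GRCh38.p14, those on assembled chromosomes.

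The regions and gene lists were chosen with earlier results of these data known. The check of the cell label leaves out 1 marker gene, which is not reported here. The rule for named regions took in all 5: the widest, those nearest LINC01235, the highest and lowest folds, the largest differences per mark, and the neighbours of the width limit, each with its nearest protein-coding gene. Alternatives were other minimum covers, a stricter q-value, equal peak numbers, quantile normalization, a replicate block, leaving out each replicate, and other widths and windows; the windows of 25, 50 and 100 kb were added after seeing the data. Python 3.11.15 was used for the rest.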

Additional observations from a re-analysis of the deposited data

How the results depend on the processing

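Width decides the set: at 1500 bp there were 40 regions and at 3000 bp 1. At 1500 bp the share of regions with a peak in every NC1235 library was 2.5% for H2AZ, 12.5% for H3K27ac, 7.5% for H3K9ac and 5% for H3K36me3. The H3K36me3 share was 0% with 50% of the region covered, with the ChIRP summit inside a mark peak, or at 3000 bp. The desert share was 0% with intervals of 1000 kb, with lncRNA genes counted as well, or at 3000 bp, and 40% with only curated protein-coding genes. Intervals of at least 1000 kb held 15.7% of the other autosomal peaks. No share of the others was computed with lncRNA genes counted or with only curated genes. The number of regions with changed H3K27ac in the 50 kb windows was 1 with quantile normalization. In that setting 8234 of all 58672 windows passed higher and 8370 lower, so nothing particular to the wide peaks is read from it. The number also varied when 1 library was left out. Fits that leave out a library assume that the lone library of an arm varies like the others. Other counts of changed regions, in the peaks and the 50 kb windows, stayed at 0 in every alternative run. Over all ChIRP peaks, limma calls with 1 library left out ran from 285 to 660 for H2AZ (0 with all libraries), from 675 to 3401 for H3K27ac (222) and from 1093 to 5743 for H3K36me3 (0). H2AZ calls were 41 with a minimum cover of 20%, and H3K27ac calls 406 with 1 kb added on each side. In the 50 kb windows the same ranges were 0 to 155 (0), 2117 to 12207 (11493) and 66 to 1374 (0), and quantile normalization gave 1314 for H2AZ and 4779 for H3K36me3. In the 100 kb windows H3K36me3 calls higher in Si1235 were 36, against 2436 with the replicate block, 3372 with quantile normalization, 0 without a minimum cover and 66 to 2195 with 1 library left out. Replicate numbers are not said in the labels to pair libraries, and deviations correlated at 0.058, 0.034 and 0.037 in the peaks (H2AZ, H3K27ac, H3K36me3) and at 0.424, 0.112 and 0.621 in the 50 kb windows. With the replicate block 0 regions passed in the peaks or the 50 kb windows, while calls over all windows went to 3635 for H3K36me3, against 0 without the block. In the peaks 0 of the 222 H3K27ac calls passed with the block. Small differences changed sign. The chromosome 15 H3K27ac difference was −0.467 points with 25 kb flanks, the chromosome 9 one −0.0982 with 100 kb flanks, and the chromosome 5 H3K36me3 one −0.161 with quantile normalization. With 1 library left out, the 50 kb H2AZ differences ran from −0.0779 to 0.495 at chromosome 11, −0.232 to 0.009661 at chromosome 20, −1.34 to 0.162 at chromosome 5 and −0.0151 to 0.821 at chromosome 9. Those of H3K27ac ran from −0.226 to 0.338 at chromosome 15 and −0.0677 to 0.116 at chromosome 9, and that of H3K36me3 from −0.0681 to 1.39 at chromosome 5. The causes were not tested. The lists do not give sequencing depth, so its effect on peak cover was not tested.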
